A study of Bos taurus with 8 samples.

Results

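High density lipoprotein (HDL) genes and their sterol-sensing regulators were followed in granulosa cells of growing and plateau dominant follicles of Holstein dairy cattle. The members are 9 genes, chosen by name: the apolipoproteins APOA1, APOE and APOM, the sterol exporters ABCA1 and ABCG1, the HDL-modifying proteins LCAT and PLTP, and the liver X receptors NR1H2 and NR1H3. They are read by 16 probes of the 43794 probes on the array, and by 9 of the 15216 gene symbols that its annotation names. The rule used no measured value, but the list was drawn up with earlier results of these data known. APOA1 was also among the genes that the study selected from these samples for quantitative PCR. Its direction here is therefore no independent evidence. In that PCR, which included follicles not on the arrays, the study reported a tendency for APOA1 to differ between growing and plateau, without significance.

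The comparison asked which transcripts differ between the growing phase (G) and the plateau phase (P) of follicles larger than 9 mm. The stages were assigned from the DNA content of the granulosa cells by flow cytometry. The ovaries came from a slaughterhouse, where the reproductive status of the cows was not known. Mural granulosa cells were scraped from individual follicles, and the RNA of 4 G and 4 P follicles was amplified and hybridized to EmbryoGENE bovine arrays, a platform that takes RNA in both dyes on each spot. Each G follicle was set against 1 P follicle, and each such pair has 2 arrays of opposite dye orientation. The 8 arrays on 2 slides thus hold 4 follicle pairs, numbered 1 to 4 by their position. The labels do not say which follicles came from the same cow.

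HDL is the main lipoprotein of follicular fluid, because the follicle wall holds back larger particles. APOA1 is its structural protein and is made chiefly by liver and intestine. ABCA1 loads cholesterol onto lipid-poor APOA1 and ABCG1 onto the growing particle, where LCAT turns it into cholesteryl ester. NR1H3 (LXR alpha) and NR1H2 (LXR beta) are nuclear receptors for oxidized cholesterol that pair with retinoid X receptors, and ABCA1, ABCG1, APOE and PLTP are among their known targets in mouse and human cells.

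The APOA1 transcript can be tied to sequence through the primers of the study's PCR assay, which are shown because APOA1 had the largest difference among the members. Both are written 5′ to 3′, and their place relative to the array probes was not determined.
APOA1 forward: ccgtgtatgtggaagcaatcaagg
APOA1 reverse: gttgtccaggagtttcaggttgag

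Ratios below are log2 of P over G, so that 1 unit is a doubling and positive values are higher in P. Levels are log2 intensities of a follicle, averaged over its Cy3 and its Cy5 reading, and can be compared between follicles for one probe but not between genes. Each gene is given by its brightest probe, and a spot counted as above background when its intensity was more than 2 SD over the average control spot (negative or dark) of its array. Control spots lay at a level of 7.31 to 7.41. APOA1, APOE, APOM, LCAT, NR1H2 and NR1H3 were above background on all 8 arrays in both stages. ABCA1, ABCG1 and PLTP were not. In bulk RNA, fewer cells of a type and less RNA per cell cannot be told apart.

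In the fit of pair means used here, no member differed between G and P by the study's criterion. That criterion is a fold change above 1.5, an unadjusted p below 0.05 and an average intensity of 7 or more on the log2 scale. The background for this count of 0 of 9 genes is that 1.11% of all symbols met the criterion by their brightest probe, and 0.715% of all probes (135 higher in P, 0.308%, and 178 lower, 0.406%). None of the 16 member probes met it either. The study's own gene list came from its own fit. With the 8 arrays taken as independent, which counts both arrays of a pair as replicates, APOA1 and NR1H3 met the criterion. After Benjamini-Hochberg adjustment over all probes, limma called 0% of probes, while 1171 probes (2.67%) had an unadjusted p below 0.05, none of the 16 member probes among them. The adjusted p in limma was 0.9999 for each member. The stages overlapped in every member, where 1.6% of all symbols had no overlap. APOA1 and PLTP had positive mean ratios and the other 7 members negative ones, those of LCAT and NR1H2 close to 0, with a median of -0.04, beside a median of 0.00 and 51% positive among all symbols.

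**Figure D1:**
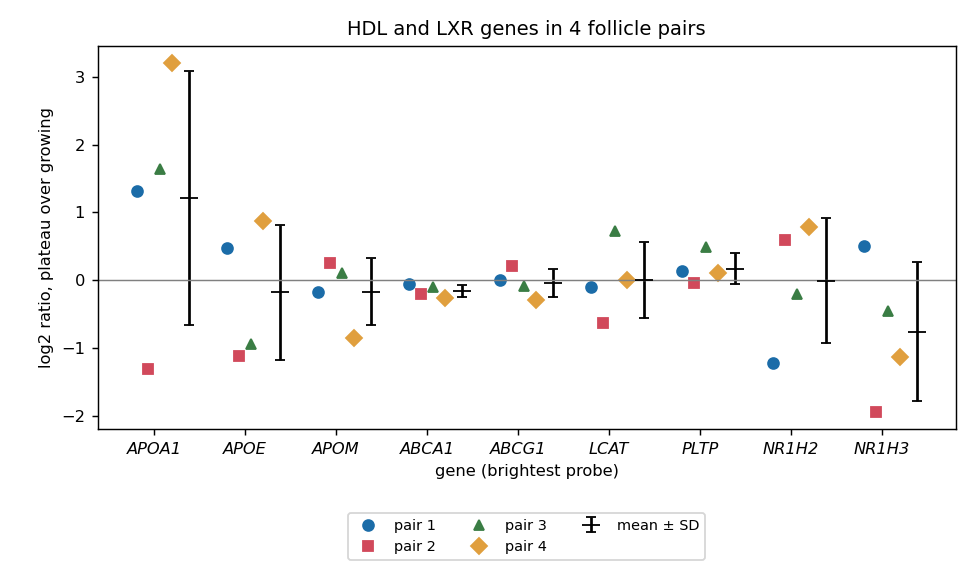
Log2 ratio of P over G for the brightest probe of each member, 1 point per follicle pair (mean of 2 dye-swap arrays), with the mean ± SD of 4 pairs as the black bar. APOA1 spans -1.31 to 3.20 and NR1H3 -1.94 to 0.50, while ABCA1 lies between -0.26 and -0.06.

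APOA1 had the widest spread of the members. Its levels in the G follicles of pairs 1 to 4 were 10.70, 12.62, 11.77 and 10.54, and in the P follicles 12.01, 11.32, 13.41 and 13.74. The P follicles of pairs 3 and 4 had the highest levels, and the G follicles of pairs 1 and 4 the lowest. The G follicle of pair 2 came next, above the P follicles of pairs 1 and 2, so the stages overlapped. The range of 3.20 is a 9.16-fold difference between follicles and was wider than that of 95.2% of the 7578 symbols above background on all arrays, whose median range was 1.21.

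The ratios of APOA1 were 1.31, -1.31, 1.64 and 3.20 in pairs 1 to 4. P was thus higher in 3 of 4 pairs, with a mean of 1.21 ± 1.87 (SD, n = 4 pairs), a 2.31-fold difference. The 95% interval of limma was -0.73 to 3.15, with an unadjusted p of 0.168. An exact permutation test that turned the signs of the pairs gave p = 0.25, where 4 pairs cannot go below 0.125, and one that exchanged the 4 against 4 follicles gave p = 0.143, with a smallest possible p of 0.0286 (both two-sided). The call rested on pair 2. Without it the mean was 2.05 and limma's unadjusted p 0.0107 (adjusted p = 0.9973), which meets the study's criterion, while the mean was 0.55 without pair 4.

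The spread was about as wide in each dye orientation. The Cy3 and Cy5 readings of a follicle lay within 0.13 of their mean for APOA1, and the ratios were 1.24, -1.16, 1.38 and 3.09 with P in Cy5 and 1.38, -1.46, 1.90 and 3.30 with P in Cy3. A second probe for APOA1 had ratios of 1.56, -1.31, 1.64 and 2.46, with a mean of 1.09 ± 1.65 (SD, n = 4). The levels of both probes had r = 0.98 over the 8 follicles, as a description of probes read on the same RNA. The order of the pairs was also the same in both, with pair 2 lowest and pair 4 highest.

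**Figure D2:**
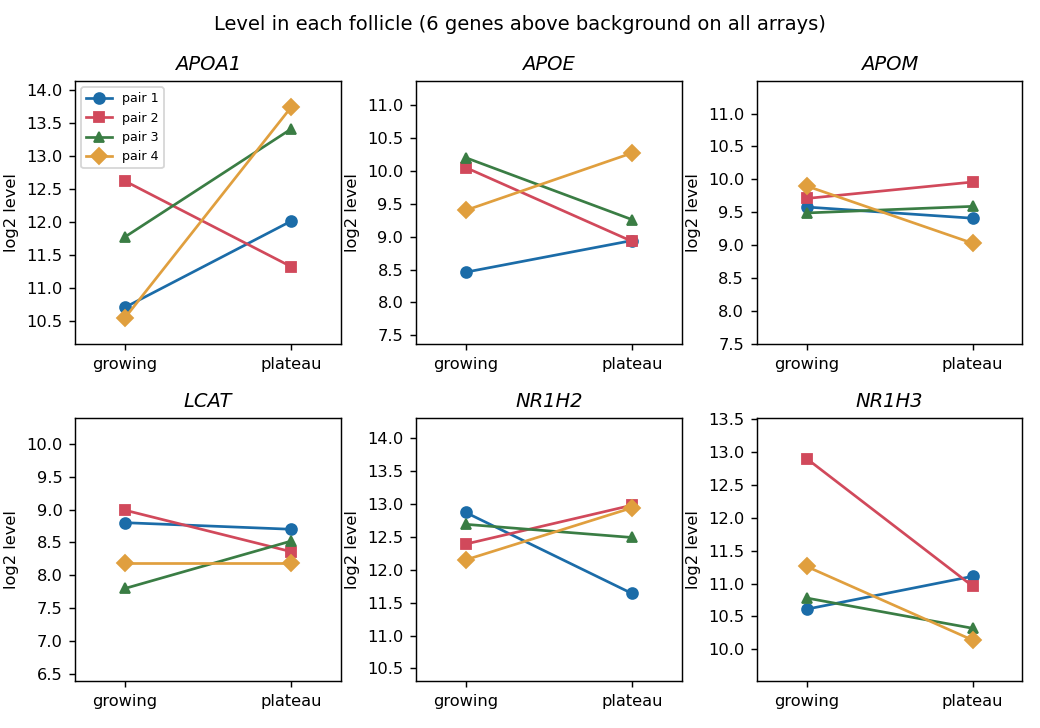
Log2 level of the 6 members above background on all arrays, 1 line per follicle pair from its G to its P follicle, with axes of the same span but different start. APOA1 goes up in pairs 1, 3 and 4 and down in pair 2, and NR1H3 is highest in the G follicle of pair 2 at 12.90.

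APOE, which carries lipids between cells, split the pairs evenly. Its levels were 8.46, 10.05, 10.20 and 9.40 in the G follicles of pairs 1 to 4 and 8.94, 8.93, 9.26 and 10.27 in the P follicles. The lowest value was the G follicle of pair 1 and the highest the P follicle of pair 4, a 3.50-fold range. The ratios of 0.48, -1.12, -0.94 and 0.87 averaged -0.18 ± 1.0 (SD, n = 4), with a limma interval of -1.23 to 0.88 (unadjusted p = 0.681). P was higher in pairs 1 and 4 and lower in pairs 2 and 3.

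Another APOE probe gave 0.55, -1.22, -0.99 and 0.76, and the dimmest one 0.23, -0.59, -0.38 and -0.07. The dimmest probe differed in the sign of pair 4 and had a narrower range, 0.90 against 1.81 for the brightest. Over the 8 follicles the levels of the 3 probes had r of 0.86 to 0.97.

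APOM, which carries sphingosine 1-phosphate on HDL, stayed within a 1.90-fold range. Its levels in G were 9.58, 9.71, 9.49 and 9.90 and in P 9.41, 9.96, 9.59 and 9.03. The P follicles of pairs 1 and 4 lay below the lowest G follicle, and that of pair 2 above the highest. The mean ratio was -0.17 ± 0.49 (SD, n = 4), higher in P in 2 of 4 pairs, with a limma interval of -0.72 to 0.37.

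Among the 6 members above background everywhere, 15 pairs of genes were compared across the 8 follicles, and none had an adjusted p under the threshold of 0.05. The strongest Pearson's r was -0.65 between APOA1 and APOM (permutation p = 0.0787, exact over all pairings) with Spearman's rho of -0.52 (exact p = 0.197), and the adjusted p values of all 15 were 0.778 or above for r and 0.591 or above for rho. It was -0.38 without the 2 follicles farthest from the median of APOA1. Leaving out extreme follicles narrows the range and can by itself weaken r. APOA1 and APOE had r = 0.56 (exact p = 0.154) and rho of 0.52 (exact p = 0.197), and 0.57 without the 2 farthest. The same removal moved r of APOA1 with NR1H3 further, from -0.15 to 0.67. For APOE with NR1H3, r moved from 0.18 to 0.79 without the 2 follicles farthest from the median of APOE. These were the largest values after removal among the 15 pairs of genes. No value after removal was tested, and each rests on fewer follicles, so they are a description only. Follicles of a pair shared arrays.

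ABCA1 was the only member with the same sign in all 4 pairs, at levels close to background. Its levels were 7.69, 7.91, 7.88 and 7.78 in G and 7.62, 7.71, 7.79 and 7.52 in P, and it was above background on 5 of 8 arrays in G and 2 of 8 in P. The ratios were -0.06, -0.20, -0.10 and -0.26, a mean of -0.16 ± 0.09 (SD, n = 4), with a limma interval of -0.36 to 0.05 (unadjusted p = 0.114). The exact test over signs gave p = 0.125, the smallest that 4 pairs allow. Among all symbols, 4.27% were lower in P in all 4 pairs and 9.04% had the same sign in all 4, so 1 of 9 members is near that share. In 3 of 4 pairs the sign was the same with both dye orientations, pair 3 being the exception.

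ABCG1 was above background on 7 of 8 arrays in G and 6 of 8 in P. Its levels ran from 7.79 to 8.17 in G and from 7.79 to 8.21 in P. The mean ratio was -0.04 ± 0.21 (SD, n = 4; limma interval -0.33 to 0.24). It was 0.13 with P in Cy5 and -0.22 with P in Cy3, and the sign differed between the orientations in 2 of 4 pairs.

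LCAT, the enzyme that APOA1 activates, had levels of 8.80, 8.99, 7.80 and 8.18 in G and 8.70, 8.36, 8.52 and 8.18 in P. The G follicle of pair 3 was lowest and that of pair 2 highest, and the P follicles lay between them. Ratios of -0.10, -0.63, 0.72 and 0.00 averaged 0.00 ± 0.56 (SD, n = 4; limma interval -0.61 to 0.60). The other LCAT probes, above background on 4 or 5 of 8 arrays per stage, had means of -0.08 and -0.10, and their levels had r of 0.76 and 0.17 with the brightest.

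PLTP, which moves phospholipid between lipoproteins, was above background on 3 of 8 arrays in G and 5 of 8 in P. Its levels were 8.17, 7.61, 7.56 and 7.39 in G and 8.30, 7.56, 8.05 and 7.49 in P. Both follicles of pair 1 and the P follicle of pair 3 were the higher ones. The mean ratio was 0.17 ± 0.23 (SD, n = 4), higher in P in 3 of 4 pairs, with a limma interval of -0.13 to 0.47. The other PLTP probe had a mean of 0.01 and exceeded background on 1 of 8 arrays in either stage.

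NR1H3 had the second widest range of the members, 6.78-fold, wider than that of 92.6% of symbols above background on all arrays. Its levels were 10.61, 12.90, 10.78 and 11.26 in the G follicles and 11.11, 10.96, 10.32 and 10.14 in the P follicles. The G follicle of pair 2 stood highest, and the P follicles of pairs 3 and 4 were the lowest. P was lower in 3 of 4 pairs, with ratios of 0.50, -1.94, -0.46 and -1.13 and a mean of -0.76 ± 1.03 (SD, n = 4), 1.69-fold lower in P. The limma interval was -1.84 to 0.33 (unadjusted p = 0.132), and the exact test over signs gave p = 0.375.

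The call of NR1H3 depended on the fit and on 1 pair. With the 8 arrays, the pair as a replicate block and a dye term in the same fit, limma gave the same mean with an unadjusted p of 0.0379 (adjusted p = 1). That fit takes a single correlation for all probes between the arrays of a pair. Its p can be too small for a probe whose arrays of a pair agree more closely. Without pair 1, the fit of pair means gave a mean of -1.17 with limma's unadjusted p at 0.023 (adjusted p = 0.7497). Without pair 2 it gave a mean of -0.36. A second, dimmer NR1H3 probe showed little of the difference. Its ratios were 0.35, -0.29, 0.09 and -0.31, a mean of -0.04 ± 0.32 (SD, n = 4), its range was 1.49-fold, and its levels had r = 0.60 with those of the brightest probe. The sign of pair 3 also differed between the probes, and their joint mean ratio was -0.40.

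NR1H2 is read by a single probe. Its levels were 12.87, 12.39, 12.69 and 12.15 in G and 11.64, 12.98, 12.49 and 12.94 in P. The P follicle of pair 1 was the lowest and those of pairs 2 and 4 the highest. Ratios of -1.23, 0.59, -0.20 and 0.79 averaged -0.01 ± 0.92 (SD, n = 4; limma interval -0.98 to 0.95). The mean was -0.33 with P in Cy5 and 0.31 with P in Cy3, and the second orientation was higher in each of the 4 pairs.

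**Figure D3:**
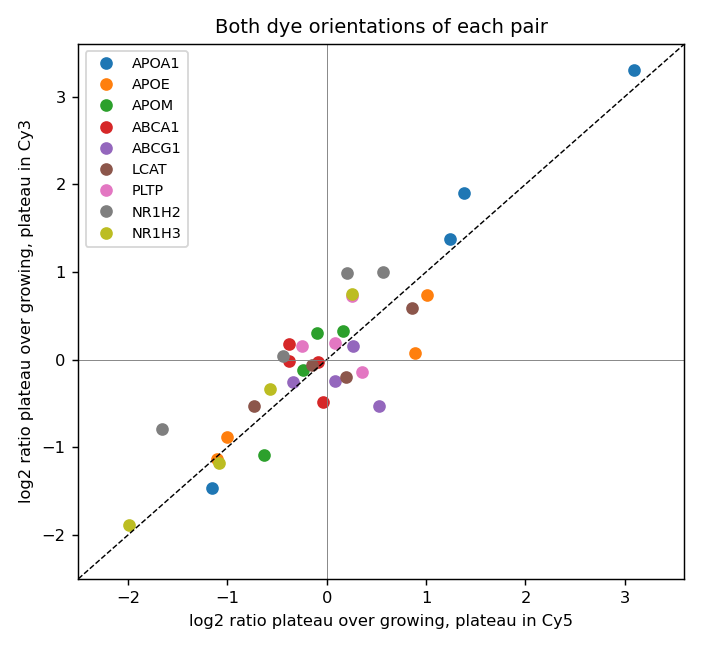
Log2 ratio of P over G in both dye orientations, P in Cy5 on the x axis and P in Cy3 on the y axis, 1 point per member and follicle pair, with the line of equality dashed. APOA1 points run along the line from -1.16 and -1.46 to 3.09 and 3.30, and the NR1H2 points lie above it.

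Partners of these genes moved in several directions, and the stages differed for 1 of them by the criterion. Of 26 genes of lipoprotein and sterol transport, 19 were measured, 8 with positive and 11 with negative mean ratios (median -0.02). Only STAR of these 19 met the criterion, beside 1.11% of all symbols. STAR, which carries cholesterol into mitochondria for steroid synthesis, had ratios of 1.47, 0.29, 4.29 and 2.50 in pairs 1 to 4 (mean 2.14 ± 1.69 SD, n = 4; limma unadjusted p = 0.0268, adjusted p = 0.9999). In pair 2, where APOA1 was lower in P, STAR was also at its smallest ratio. Like APOA1, STAR was among the genes that the study selected for PCR, so its direction here is no independent evidence. In that PCR the study reported only a tendency for STAR to differ between growing and plateau.

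SCARB1, the HDL receptor that takes up cholesteryl ester, had levels of 9.59, 15.29, 11.04 and 10.57 in G and 12.38, 10.12, 10.66 and 11.86 in P. Its highest level was thus in the G follicle of pair 2, which also had the highest level of NR1H3 and the highest of APOA1 among G follicles. High levels in that follicle were not particular to these genes. It was also the highest for the liver marker AHSG given below, had the lowest CYP19A1 level among G follicles, and was not the highest of all follicles for STAR. Whether these levels are linked was not tested. The ratios of 2.79, -5.17, -0.38 and 1.29 averaged -0.37 ± 3.45 (SD, n = 4). LRP8, a receptor for APOE-containing particles and reelin, ran from -6.76 in pair 3 to 3.88 in pair 1 (mean -1.15 ± 4.58 SD), with 1 array in P saturated, so that its mean is no exact value. SOAT1, which esterifies cholesterol for storage, had -0.69 ± 1.57 (SD), and LIPA, the lysosomal lipase that frees cholesterol from esters, had 1.04 ± 1.23 (SD), higher in P in 4 of 4 pairs (limma unadjusted p = 0.0904).

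Of 20 partners and targets of the liver X receptors, 18 were measured, with 9 positive and 9 negative mean ratios, a median of 0.00 and none at the criterion. Members of this list differed in the sign of their ratios from pair to pair. SREBF1, the regulator of fatty acid synthesis, had ratios of 1.62, -1.56, -1.57 and 1.25, and SCD, a fatty acid desaturase, 2.94, -3.30, -3.80 and -0.09. Both were positive in pair 1 and negative in pairs 2 and 3, as the brightest NR1H3 probe was. In pair 4, where that probe was at -1.13, SREBF1 had the other sign and SCD hardly differed. The SCD levels of pair 4 were 15.88 in G and 15.80 in P, near the 16.01 of LRP8 in the same P follicle. No array was saturated for SCD, but a difference between such high levels may be understated. MYLIP, a ubiquitin ligase, had the opposite signs in pairs 1 and 2, at -1.96 and 3.22. PPARG, a fatty acid receptor, averaged -0.83 ± 1.75 (SD, n = 4) and SMPDL3A, a phosphodiesterase, 0.39 ± 0.64 (SD, n = 4). SREBF1 was named after its values were seen. The signs of SCD in pairs 1 to 3 were not particular to this list. Among the granulosa markers given below, AMH, CYP19A1, FST, HSD17B1, INHA and INHBA had them too. FOXL2, FSHR, GATA4 and NR5A2 did not. The dimmer NR1H3 probe was at 0.09 in pair 3. Whether these genes follow NR1H3 was not tested.

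The other apolipoproteins gave no common direction: 13 of 15 were measured, 6 with positive and 7 with negative mean ratios (median -0.02), none at the criterion. APOD, a lipocalin found on HDL, was at 14.16 in the P follicle of pair 2 and between 8.05 and 9.93 in the other follicles. APOH, a plasma glycoprotein, had ratios of -0.28, -0.08, 1.55 and 1.67, positive in the pairs with the largest ratios of APOA1. APOA2, a further HDL protein, had 0.66, -1.19, -1.15 and -0.36, with signs that differed from APOA1 in pairs 3 and 4, and it was above background on 7 of 8 arrays in G and 5 of 8 in P. APOO, which resides in mitochondria, averaged -0.50 ± 0.60 (SD, n = 4).

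In the RefSeq annotation of the current cattle assembly, APOA1 lies beside APOC3, APOA4 and APOA5 on one side. On the other side, SIK3 follows after a gene without a given name. APOA4 was above background on no array in either stage, and APOA5 on 4 of 8 arrays in each, with ratios of 1.06, 0.12, -0.65 and -0.09. Neither had the pattern of APOA1. Next to APOE, APOC4 had a mean ratio of -0.11 ± 0.15 (SD, n = 4) and APOC2 of 0.01 ± 0.15 (SD, n = 4), with single ratios between -0.33 and 0.22. Both lay near background. APOC4 was above it on 8 of 8 arrays in G and 6 of 8 in P, and APOC2 on 3 of 8 and 6 of 8.

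**Figure D4:**
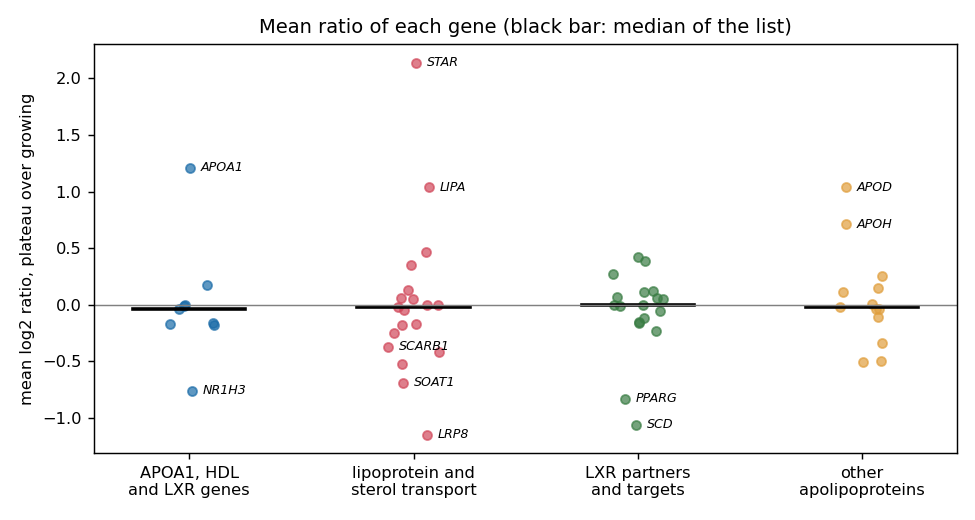
Mean log2 ratio of P over G (4 pairs) for each measured gene of 4 lists, 1 point per gene, with the median of each list as a black bar. The medians lie between -0.04 and 0.00, with STAR highest at 2.14. LRP8, at -1.15, was saturated on 1 array in P, so its value is no exact ratio.

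The genes with levels most like those of APOA1 over the 8 follicles, among 5811 other symbols that averaged 9 or more in log2 intensity, were PDCD6 (r = 0.948), DLGAP4 (r = 0.940), IKBKB (r = 0.937), IQGAP1 (r = 0.933) and NSF (r = 0.931). They were picked for this likeness, so the r values are a description. Each of them was also higher in P in pairs 1, 3 and 4 and lower in pair 2, but over smaller ranges, from 1.76-fold for PDCD6 to 2.39-fold for NSF. For APOE they were CALU (r = 0.953), APBA3 (r = 0.927), ABRAXAS2 (r = 0.907), TUBB4B (r = 0.888) and TRIT1 (r = 0.887).

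Markers of cell types differed between the follicles, within both stages. The mean level of 10 granulosa markers was 11.86, 11.43, 13.33 and 12.92 in G and 13.34, 10.64, 9.97 and 13.32 in P, with 7 of the 10 above background on all arrays. The mean ratio was negative for 8 of the 10 (median -0.66). CYP19A1, the aromatase, is shown because it defines oestrogenic granulosa cells. It was at 8.04 and 7.96 in G and P of pair 2, at 15.76 and 8.70 in G and P of pair 3, and between 11.94 and 15.84 elsewhere. It was above background on 8 of 8 arrays in G and 7 of 8 in P. In the study's PCR, which included further follicles, neither the mean nor the variance of CYP19A1 differed between stages, and the study called its expression homogenous. The smooth muscle and fibroblast markers (7 of 7 measured, all with positive mean ratios, median 0.22) had mean levels of 9.34 to 10.39 in G and 8.98 to 12.15 in P, the highest in the P follicle of pair 3. The leukocyte and macrophage markers (13 of 14 measured, 3 above background on all arrays and ITGB2 on none) had positive mean ratios in 12 of 13 (median 0.20) and mean levels of 7.69 to 8.04 in G and 7.65 to 8.87 in P, highest in the P follicles of pairs 2 and 3. None of these markers met the criterion. Without pair 3, the median ratio was 0.37 for the granulosa, -0.26 for the smooth muscle and fibroblast and 0.12 for the leukocyte and macrophage markers, and the mean ratio of APOA1 was 1.07 and that of NR1H3 -0.86.

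Liver is the main source of plasma APOA1, so the liver and plasma markers were read as well. Their mean level was 8.35 to 9.49 in G and 8.23 to 8.82 in P (6 of 6 measured, 2 above background on all arrays), and ALB was above background on 1 of 8 arrays in G and 4 of 8 in P. AHSG, a liver glycoprotein named after its values were seen, was at 13.92 in the G follicle of pair 2 and between 7.85 and 8.73 in the 7 other follicles. Theca markers (5 measured) had mean levels of 8.66 to 9.32 in G and 8.43 to 9.16 in P, endothelial markers (6) 7.95 to 8.47 and 7.90 to 8.34, and red blood cell markers (4) 7.93 to 8.22 and 7.98 to 8.27. The part of other cells in the levels of the members was not tested.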

How the data were processed

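Granulosa cell RNA of 4 G and 4 P follicles was amplified linearly, and each dye received 825 ng of it. The spot intensity and local background intensity were deposited by the authors as read by the scanner, after 12 to 30 spots per array had been excluded by hand (no member spot). The log2 ratios of Cy5 over Cy3 were deposited by the authors after background subtraction, loess and quantile normalization in FlexArray, and were used here with the sign turned on the arrays with G in Cy5. Follicle levels were rebuilt from the intensities by the same steps with limma 3.58.1 in R 4.3.3. The rebuilt ratios had r = 0.999656 to 0.999911 with the deposited ones. Levels were missing on 1 array for 7 probes, none of a member.

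Arrays at the same position of both slides were taken as the dye swap of 1 follicle pair, since the labels name none. Their deviations from the slide mean correlated at r = 0.76 to 0.88 and those of other positions at -0.44 to -0.13. Subtracting the slide mean itself draws the values of other positions below 0. The ratios without this subtraction correlated at 0.58 to 0.78 for the same position and at -0.44 to 0.02 for other positions. The mean of each pair's arrays (n = 4 pairs) was tested against 0 with lmFit and eBayes over 43794 probes. Intervals are limma's 95% intervals. The p values of limma set each mean ratio against the spread between the pair ratios, moderated over all probes. Whether follicles of different pairs shared a cow is not known.

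Symbols came from the platform annotation, 982 of 15216 replaced by a current one through RefSeq, and 22004 probes stayed unnamed. The median spot intensity was 285 to 435 in Cy3 and 186 to 285 in Cy5, and 56.6% to 79.1% of probes were above background. The number of arrays limits the precision. The members, lists and tests were chosen with earlier results of these data known. Named were the members, the 4 list genes with the largest mean ratio of each list (mean log2 intensity of at least 8), list genes at the criterion, the 5 genes most like APOA1 and APOE, SCARB1 and STAR. Some list genes were not analysed here. Alternatives were normexp correction (offset 50), no quantile step, 8 arrays as independent, a replicate block with a dye term, unpaired follicles, each slide alone, all probes of a gene and each pair left out. Scripts were tested on simulated data.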

Additional observations from a re-analysis of the deposited data

Results flagged for a closer look

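Of 34 genes named here, 102 groups of 4 values (G levels, P levels and ratios) were examined for 1 value far from the other 3. In independent, normally distributed values, chance alone sets apart about 1 in 20 such groups. Many of these genes were named for their values in these data, and the ratios are differences of the levels. That rate therefore does not apply here, and the values below are a description. None of the 27 groups of the 9 members had such a value. The levels set apart were those of APOD in the P follicle of pair 2, at 14.16 against 8.18 to 8.70 in the other P follicles, of APOA2 in the G follicle of pair 1, at 7.64 against 8.87 to 8.96, and of AHSG in the G follicle of pair 2, at 13.92 against 7.98 to 8.04. IKBKB at 11.60 against 11.09 to 11.14 and IQGAP1 at 15.60 against 14.80 to 14.94 were also set apart in the G follicle of pair 2. Of the ratios, LIPA in pair 3 was at 2.88 against 0.34 to 0.52, and AHSG in pair 2 at -5.19 against -0.13 to 0.54.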

How the results depend on the processing

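Of 104 alternative values for the members, 85 kept their direction and their side of the criterion, 14 turned and 5 newly met it. With each pair left out in turn, the mean log2 ratio ranged from 0.55 to 2.05 for APOA1, -0.53 to 0.14 for APOE, -0.31 to 0.06 for APOM, -0.13 to 0.04 for ABCG1, -0.24 to 0.21 for LCAT, -0.28 to 0.39 for NR1H2 and -1.17 to -0.36 for NR1H3. APOA1 and NR1H3 thus kept their sign, as did ABCA1 (-0.19 to -0.12) and PLTP (0.07 to 0.24). ABCG1 turned to 0.02 with normexp and no quantile step and to 0.13 on slide 1 alone. LCAT turned to 0.01 with normexp, 0.03 with normexp and no quantile step and 0.04 on slide 1 alone, and NR1H2 to 0.31 on slide 2 alone. With 8 arrays taken as independent, APOA1 (1.21) and NR1H3 (-0.76) met the criterion in limma. That fit counts both arrays of a pair as replicates, although they hold the same follicles. With the follicle pair as a replicate block and a dye term, fitted together, NR1H3 did (-0.76), and no other member's call changed. Fitted as 4 against 4 follicles without the pairing, no member met it.

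Over all probes, 313 met the criterion. The count was 741 with 8 arrays as independent, 697 with the replicate block and dye term, 1046 on slide 1 alone, 888 on slide 2 alone and 330 to 1551 with each pair left out (1551 without pair 1, 825 without pair 2). The adjusted p called 0 probes, and 1 with 8 arrays as independent. The median of the other apolipoproteins was 0.08 on slide 2 alone, and with each pair left out the medians ran from -1.49 to 0.37 for the granulosa, -0.26 to 1.11 for the smooth muscle and fibroblast, -0.48 to 0.07 for the theca, -0.13 to 0.09 for the liver and plasma and -0.04 to 0.06 for the endothelial markers. The cause was not tested. Intensity limits ABCA1, ABCG1 and PLTP, which lay near the control spots.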
